A study of Homo sapiens with 11 samples.

Results

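The genes described here are 42 genes of DNA replication and S phase, taken from a fixed list of gene symbols with no threshold on a measured value, although earlier results of these data were known when the list was drawn up. All 42 were found among the 19990 genes of the count table. They were measured in cardiomyocytes derived from the human line WTC11, an established line of induced pluripotent stem cells used here at passage 63. Cells were differentiated with CHIR99021, which blocks the kinase GSK3 and so turns Wnt signalling on, followed by IWP2, which blocks the secretion of Wnt ligands. Wells were then kept in RPMI medium with B27 supplement that contained insulin, and poly(A) RNA libraries were made on Day 30 (4 wells), Day 60 (3) and Day 113 (4). All 11 wells carried the same line and came through the same protocol without a genetic change, so by their labels the groups differ in day of culture alone.

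The share of cells with cardiac troponin T was measured before long-term culture, per the labels' protocols, and no later sort is described, so each library can hold cells other than cardiomyocytes. The wells came from 1 differentiation of 1 line, and the p-values measure only the spread between these wells. Day of culture and day of collection cannot be told apart. In such bulk RNA, fewer cells of a type and less RNA per cell cannot be told apart either. The cardiomyocyte label was checked against 8 markers, all of which (TNNT2, MYH6, MYH7, MYL2, MYL7, ACTN2, RYR2 and NKX2-5) had counts in all 11 wells. Library totals ran from 24071375 to 34546715 counts, and the 42 genes took 0.0658% to 0.126% of a library. The lowest count of any of the 42 genes in any well was 10, for CCNE2 at Day 30, and no gene was removed by the filter on low counts.

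DNA replication is prepared in G1, when the origin recognition complex, CDC6 and CDT1 load the ring-shaped MCM2-7 helicase onto origins. In S phase, CDC45 and the GINS complex join MCM2-7 to form the active helicase, and polymerases alpha, delta and epsilon copy the strands, held to DNA by the sliding clamp PCNA that the RFC complex loads. E2F transcription factors drive many of these genes when cyclin-dependent kinases inactivate the retinoblastoma family. Cardiomyocytes largely leave the cell cycle as the heart matures, although they can copy DNA without dividing, whereas stromal and endothelial cells can go on dividing.

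Promoter sequences are shown for 5 genes that carry the contrasts described below: 3 replication genes that rose (E2F1, PCNA and CDC6), the replication gene that fell (CDT1), and TOP2A, a gene of the mitosis list used for comparison. Each is the RefSeq window in GRCh38.p14 from 250 bases before to 50 bases after an annotated gene start, read 5′ to 3′ on the gene's strand. Capitals mark exact matches, on either strand, to the E2F words TTTCCCGC, TTTGGCGC, TTTCGCGC and TTTGCCGC, or in TOP2A to the CHR (cell cycle genes homology region) words TTTGAA and TTCGAA. The windows lie at chr20:33686336-33686635 (minus strand, E2F1), chr20:5126573-5126872 (minus, PCNA), chr17:40287629-40287928 (plus, CDC6), chr16:88803539-88803838 (plus, CDT1) and chr17:40417847-40418146 (minus, TOP2A).
E2F1: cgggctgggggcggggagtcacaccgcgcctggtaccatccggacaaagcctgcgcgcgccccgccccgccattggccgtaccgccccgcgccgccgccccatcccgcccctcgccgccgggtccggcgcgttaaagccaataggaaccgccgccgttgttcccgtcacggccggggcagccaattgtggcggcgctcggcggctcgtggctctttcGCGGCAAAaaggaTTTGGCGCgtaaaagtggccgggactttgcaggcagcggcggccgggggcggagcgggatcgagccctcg
PCNA: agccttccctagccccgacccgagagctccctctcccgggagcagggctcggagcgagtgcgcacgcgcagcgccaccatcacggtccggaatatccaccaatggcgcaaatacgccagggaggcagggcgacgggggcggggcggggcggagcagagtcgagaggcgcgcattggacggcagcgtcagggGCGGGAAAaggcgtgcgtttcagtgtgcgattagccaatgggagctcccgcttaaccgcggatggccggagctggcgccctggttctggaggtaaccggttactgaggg
CDC6: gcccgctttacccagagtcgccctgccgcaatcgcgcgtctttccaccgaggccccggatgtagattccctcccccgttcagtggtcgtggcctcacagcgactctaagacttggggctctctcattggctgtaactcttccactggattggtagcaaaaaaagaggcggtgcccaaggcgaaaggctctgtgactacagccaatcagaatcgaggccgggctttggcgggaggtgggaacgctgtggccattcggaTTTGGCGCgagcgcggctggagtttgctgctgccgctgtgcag
CDT1: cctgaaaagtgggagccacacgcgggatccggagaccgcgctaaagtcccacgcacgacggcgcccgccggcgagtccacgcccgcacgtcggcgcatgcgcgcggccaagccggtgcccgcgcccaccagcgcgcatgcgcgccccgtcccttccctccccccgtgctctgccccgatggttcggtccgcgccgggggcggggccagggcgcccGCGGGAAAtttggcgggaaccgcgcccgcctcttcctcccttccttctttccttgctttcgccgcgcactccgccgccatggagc
TOP2A: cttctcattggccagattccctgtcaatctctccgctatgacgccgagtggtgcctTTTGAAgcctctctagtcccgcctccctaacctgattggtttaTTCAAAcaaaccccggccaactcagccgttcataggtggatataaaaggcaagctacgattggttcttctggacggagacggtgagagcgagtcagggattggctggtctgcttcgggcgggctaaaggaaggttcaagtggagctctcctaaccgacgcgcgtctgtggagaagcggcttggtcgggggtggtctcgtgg
E2F1 held matches starting 33 and 20 bases before the start, PCNA held one starting 59 bases before it, and CDT1 held one starting 35 bases before it. In CDC6 the match lay just after the start, and TOP2A held CHR matches starting 194 and 151 bases before it and no E2F match. A second PCNA window, at chr20:5119909-5120208, held 0 E2F matches and is not shown.

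RefSeq windows were matched for 37 of the 42 genes, leaving out MCM4, MCM5, GINS4, RPA2 and CCNE2. An E2F word was found in 20 of the 37 (54.1%), against 3.99% of the 27305 genes with a window. A CHR word was found in 2 of the 37 (5.41%), against 19.5% of the same 27305 genes, a set not limited to the count table. Of 18 mitosis genes with a window the order was the other way, with a CHR word in 14 (77.8%) and an E2F word in 2 (11.1%). TTCGAA reads the same on both strands, and the E2F words can overlap one another on opposite strands, so each gene was counted once. A gene with several windows was counted if any of them held a match. All 4 MCM2-7 genes with a window held an E2F word, as did 3 of 5 licensing genes, 3 of 5 helicase activation genes, 1 of 4 deoxynucleotide genes and neither chromatin assembly gene. Among the genes that rose from Day 30 to Day 113, 15 of 26 held one, and among the others 5 of 11 did. A match is a description of these windows and not a binding site.

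The replication genes as a group stood at one level at Day 30 and Day 60 and at a higher one at Day 113. Levels are given as CPM, counts per 1000000 counts of the scaled library. The sum over the 42 genes was 679, 787, 743 and 732 CPM in the Day 30 wells, 681, 769 and 725 CPM in the Day 60 wells, and 1101, 1280, 998 and 1128 CPM in the Day 113 wells. Every Day 113 well lay above every earlier well, while the Day 30 and Day 60 wells overlapped. From Day 60 to Day 113, 25 of the 42 genes rose and 0 fell by the edgeR test at an adjusted p under 0.05, beside a background of 24% of all genes called, 12.9% higher and 11.1% lower. From Day 30 to Day 113, 31 rose and 1 fell, beside a background of 34.5%, 17.3% higher and 17.2% lower. By an unadjusted p under 0.05, 2 genes were lower at Day 113 than at Day 60, and DESeq2 called 1 of them, CDT1, at the adjusted threshold. The 2 comparisons share the Day 113 wells. With 1 well left out at a time, 18 to 26 genes rose from Day 60 and 23 to 33 from Day 30. In the joint test over the 3 days 30 genes passed, beside 37.1% of all genes.

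From Day 30 to Day 60 none of the 42 genes passed the test in either direction by edgeR, while 10.3% of all genes did, 4.39% higher and 5.91% lower. By an unadjusted p under 0.05, 1 gene was higher and 4 were lower, and DESeq2 also called 0 at the adjusted threshold, with 2 higher and 4 lower unadjusted. The median log2 fold change was -0.0046, against -0.011 for all genes, with 21 genes above 0 and 21 below. The lowest adjusted p was 0.084, for CHAF1A. In the later interval the median was 0.74 and 39 of the 42 genes lay above 0, where the median of all genes was 0.0016. Over the whole course the median was 0.70, beside -0.018 for all genes.

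**Figure D1:**
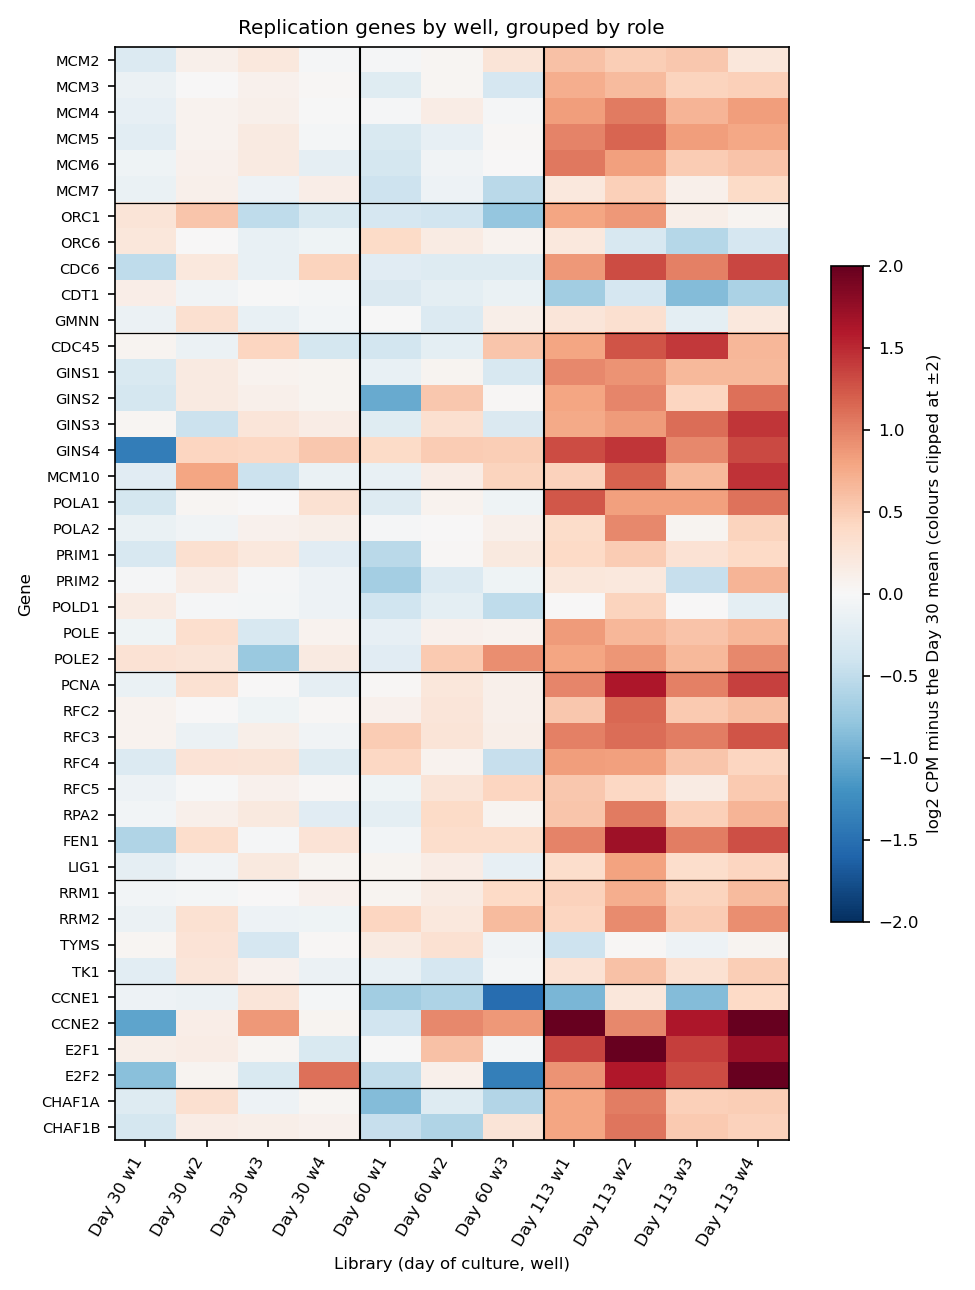
Heat map of the 42 replication genes (rows, grouped by role) in the 11 wells (columns), coloured by log2 CPM minus the gene's Day 30 mean, with colours clipped at ±2. The Day 113 columns are red for most genes, CDT1 is blue in the Day 113 wells, and TYMS, GMNN and ORC6 show no common shift.

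The wells gave the same picture without a model. For 28 genes all 4 Day 113 wells lay above all 3 Day 60 wells, a pattern that 16.2% of all genes showed, and for 1 gene, CDT1, they lay below, as for 14.4% of all genes. Against Day 30, the Day 113 wells lay above for 29 genes (17.1% of all genes) and below for CDT1 (18% of all genes). Between Day 60 and Day 30 the wells did not overlap for 2 higher genes, RFC2 and RFC3 (10.7% of all genes), and for 4 lower ones, CDT1, POLD1, CCNE1 and CHAF1A (14.1% of all genes). Of the 42 genes, 23 rose both from Day 60 to Day 113 and over the whole course. A further 8 (MCM2, GINS4, MCM10, POLA2, RFC4, RFC5, RRM2 and CCNE2) rose over the whole course only, and 2 (MCM7 and POLD1) in the later interval only. The 8 genes that passed in no pair of days were ORC1, ORC6, GMNN, PRIM1, PRIM2, POLE2, TYMS and CCNE1.

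The change in the later interval minus that in the earlier one was tested directly. The interval from Day 60 to Day 113 is longer than that from Day 30 to Day 60, and changes were not scaled by length. A steady rate of change would also give a difference, so the test compares whole changes and not rates. The difference passed for 11 of the 42 genes, all positive, beside 9.34% of all genes called, 4.97% positive and 4.38% negative. These were MCM3, MCM4, MCM5, MCM6, MCM7, CDC6, GINS1, POLA1, PCNA, E2F1 and CHAF1A. The difference was 1.83 ± 0.36 for CHAF1A (log2 ± SE, adjusted p = 0.0058) and 1.23 ± 0.25 for MCM5 (adjusted p = 0.0071), and it ran from 0.79 for MCM4 to 1.69 for CDC6 among the other 9. Day 60 enters both intervals, so the count rested on its 3 wells: it was 0 without Day 60 replicate 1 (17 at an unadjusted p under 0.05), 2 without Day 60 replicate 3 and 6 without Day 30 replicate 2. Without Day 60 replicate 1 the adjusted p was 0.055 for CHAF1A and 0.063 for MCM5.

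**Figure D2:**
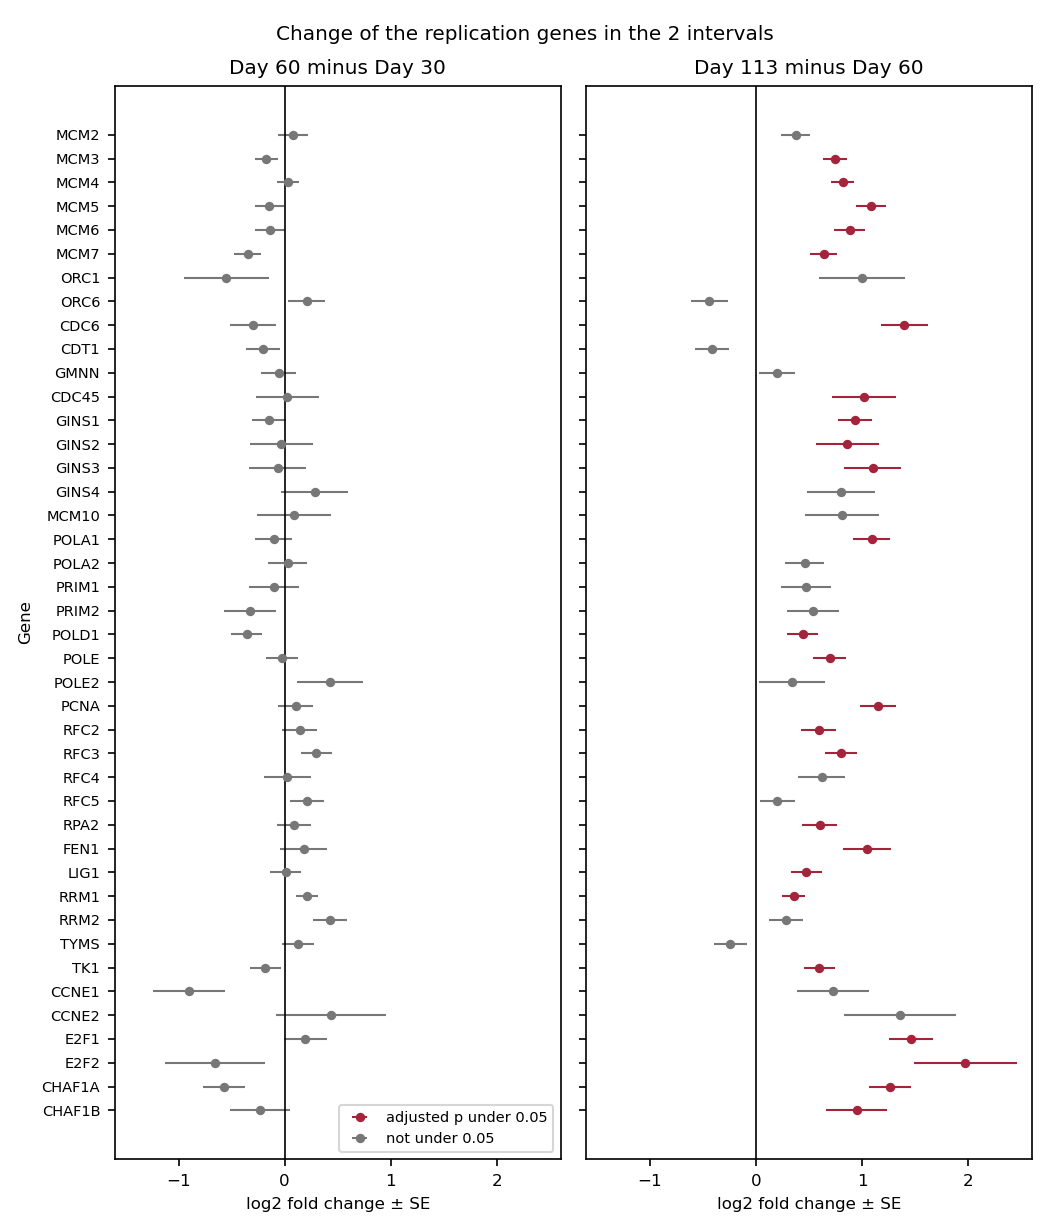
Log2 fold change of each of the 42 genes (points, with bars of 1 SE) from Day 30 to Day 60 on the left and from Day 60 to Day 113 on the right, red where the adjusted p was under 0.05. On the left all points are grey and scatter around 0; on the right 25 points are red and all of these lie above 0.

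Counts by role, here and below, are read against all genes, of which 12.9% were called higher and 11.1% lower from Day 60 to Day 113. Over the whole course these shares were 17.3% and 17.2%. The MCM2-7 helicase, the ring that unwinds DNA ahead of the fork, rose in most of its subunit genes. From Day 60 to Day 113, 5 of its 6 subunit genes rose (all but MCM2), with a median log2 fold change of 0.78, and over the whole course 5 of 6 rose (all but MCM7), with a median of 0.66. MCM5, which sits at the gate through which the ring closes around DNA, was 17.1, 20.9, 22.5 and 19.4 CPM in the Day 30 wells, 16.1, 17.7 and 20.3 CPM at Day 60, and 39.3, 44.4, 35.5 and 34.0 CPM at Day 113. No Day 113 well came near an earlier one, and the rise from Day 30 was 1.92-fold (log2 0.94 ± 0.13 SE, adjusted p = 3.9e-05). MCM4, a subunit of the catalytic core, was 44.2, 51.6, 53.1 and 49.3 CPM at Day 30, 48.5, 54.8 and 48.4 CPM at Day 60, and 87.8, 101, 79.4 and 88.4 CPM at Day 113. Its earlier days overlapped and the Day 113 wells stood clear of them, with a log2 rise from Day 30 of 0.85 ± 0.10 (adjusted p = 8.3e-06). MCM6, the partner of MCM4 and MCM7 in that core, was 30.7, 34.7, 37.0 and 28.96 CPM at Day 30, 25.6, 31.2 and 32.7 CPM at Day 60, and 67.5, 57.8, 46.6 and 48.5 CPM at Day 113. Its highest value was in Day 113 replicate 1, and the rise from Day 30 was 0.75 ± 0.13 on the log2 scale (adjusted p = 0.00041).

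MCM3, the neighbour of MCM5 in the ring, was 58.3, 63.7, 67.4 and 64.0 CPM at Day 30, 53.6, 65.3 and 49.9 CPM at Day 60, and 105, 98.4, 85.9 and 88.5 CPM at Day 113. All Day 113 wells lay above the rest, a log2 rise of 0.75 ± 0.11 from Day 60 (adjusted p = 0.00025) and of 0.57 ± 0.10 from Day 30 (adjusted p = 0.00043). MCM7 was 52.7, 61.9, 53.6 and 63.5 CPM at Day 30, 43.5, 53.6 and 39.7 CPM at Day 60, and 66.6, 80.3, 61.7 and 75.3 CPM at Day 113. It rose from Day 60 (0.64 ± 0.13, adjusted p = 0.002), but its Day 30 and Day 113 wells overlapped and the whole-course difference of 0.29 ± 0.12 did not pass (adjusted p = 0.063). MCM2, at 19.6 to 27.4 CPM at Day 30 and 27.8 to 35.6 CPM at Day 113, rose over the whole course (0.45 ± 0.13, adjusted p = 0.012) and not from Day 60 (adjusted p = 0.064).

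Of the 5 origin licensing genes 1 rose over the whole course, 1 fell, and 3 did not pass, with a median log2 fold change of 0.14. These counts were near the shares of all genes called, 17.3% higher and 17.2% lower. CDC6, the ATPase that helps to load MCM2-7, was 4.97, 8.17, 6.32 and 9.55 CPM at Day 30, 6.00, 5.86 and 5.87 CPM at Day 60, and 12.8, 17.4, 14.2 and 17.9 CPM at Day 113. Its Day 113 wells all exceeded the earlier ones, and it rose 2.63-fold from Day 60 (log2 1.40 ± 0.22, adjusted p = 0.00038). CDT1, the loading factor that is destroyed in S phase, went the other way, at 15.2, 13.2, 13.8 and 13.5 CPM at Day 30, 11.4, 12.1 and 12.6 CPM at Day 60, and 8.57, 11.02, 7.65 and 8.95 CPM at Day 113. No 2 days shared a value, and CDT1 fell by 0.62 ± 0.15 on the log2 scale from Day 30 to Day 113 (adjusted p = 0.004). Neither interval alone passed for CDT1 in the main fit (adjusted p = 0.51 and 0.071). The later one did in some alternative settings, such as DESeq2, limma-voom and leaving out Day 113 replicate 2. GMNN encodes geminin, the inhibitor of CDT1, and was 14.9, 20.3, 14.7 and 15.6 CPM at Day 30, 16.1, 13.4 and 17.7 CPM at Day 60, and 19.1, 20.2, 14.2 and 18.8 CPM at Day 113. Its days overlapped throughout and the whole-course difference was 0.14 ± 0.16 (adjusted p = 0.53). ORC6 (-0.23 ± 0.16, adjusted p = 0.31) and ORC1 (0.45 ± 0.36, adjusted p = 0.38), 2 subunits of the origin recognition complex, did not pass over the whole course, and ORC1 stood at only 1.04 to 3.26 CPM.

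All 6 genes that turn the loaded ring into a moving helicase rose from Day 30 to Day 113, with a median log2 fold change of 0.96, and 4 of them rose from Day 60. GINS1, the first of the 4 GINS subunits, was 10.9, 15.2, 14.2 and 13.9 CPM at Day 30, 12.1, 13.9 and 10.7 CPM at Day 60, and 26.0, 24.97, 21.2 and 20.98 CPM at Day 113. The Day 113 wells stood clear of the earlier ones, with a rise of 0.78 ± 0.14 from Day 30 (adjusted p = 0.0006), the smallest of this role. GINS4 had the largest, 1.08 ± 0.29 (adjusted p = 0.0091), from 1.91, 6.70, 6.58 and 7.18 CPM at Day 30 and 6.45, 7.08 and 6.94 CPM at Day 60 to 12.2, 13.3, 9.64 and 12.4 CPM at Day 113. Day 30 replicate 1 was far below the other wells for GINS4, while the Day 113 wells exceeded all others. Its rise from Day 60 did not pass with all wells (0.80 ± 0.32, adjusted p = 0.081) and did without that well (adjusted p = 0.0058). CDC45 (1.04 ± 0.27, adjusted p = 0.0077), GINS3 (1.03 ± 0.24, adjusted p = 0.0037), MCM10 (0.90 ± 0.32, adjusted p = 0.041) and GINS2 (0.83 ± 0.27, adjusted p = 0.026) lay between. For 2 of these the call from Day 30 depended on single wells. MCM10 did not pass without any one of Day 30 replicates 1, 3 or 4, Day 60 replicate 2 or Day 113 replicates 2 or 4 (adjusted p up to 0.13), nor GINS2 without Day 30 replicate 1 or Day 113 replicates 2 or 4 (up to 0.083). From Day 60, GINS2 was lost without any one of 9 wells, all but Day 60 replicate 2 and Day 113 replicate 3 (up to 0.18), and CDC45 without Day 60 replicates 1 or 2 or Day 113 replicate 3 (up to 0.1).

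The polymerases were split. POLA1, POLE and POLA2 rose over the whole course and POLD1, PRIM1, PRIM2 and POLE2 did not pass, with a median of 0.49 over the 7 genes. POLA1, the catalytic subunit of the polymerase that starts each new strand, was 9.59, 12.5, 12.2 and 15.01 CPM at Day 30, 10.2, 12.8 and 11.5 CPM at Day 60, and 28.8, 21.5, 21.5 and 25.8 CPM at Day 113. Its Day 113 wells lay above all others, and it rose 1.98-fold from Day 30 (log2 0.98 ± 0.16, adjusted p = 0.00018). POLE, the catalytic subunit of the leading-strand polymerase, rose by 0.67 ± 0.14 (adjusted p = 0.0014). POLD1, the catalytic subunit of the lagging-strand polymerase, was 39.5, 34.7, 34.1 and 32.7 CPM at Day 30, 26.8, 30.8 and 24.8 CPM at Day 60, and 35.3, 47.6, 35.4 and 30.6 CPM at Day 113. All its Day 60 wells lay below all Day 30 wells without passing the test (-0.36 ± 0.14, adjusted p = 0.14), and its Day 113 and Day 30 wells overlapped (0.08 ± 0.13, adjusted p = 0.69). The POLD1 rise from Day 60 (0.44 ± 0.14, adjusted p = 0.037) did not pass without any one of Day 30 replicate 2, Day 60 replicates 1 or 3 or Day 113 replicates 2 or 3 (up to 0.14). POLA2 (0.49 ± 0.17, adjusted p = 0.037) did not pass without any one of Day 30 replicates 1, 2 or 3 or Day 113 replicates 2 or 4 (up to 0.14). The primase genes PRIM1 (0.37 ± 0.22) and PRIM2 (0.21 ± 0.22) and the accessory subunit POLE2 (0.77 ± 0.29) had adjusted p-values of 0.2, 0.51 and 0.053.

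Every gene of the clamp, clamp loader and lagging strand, 8 of 8, rose over the whole course, with a median log2 fold change of 0.71, and 6 rose from Day 60. PCNA, the sliding clamp, was 17.9, 24.3, 19.7 and 17.3 CPM at Day 30, 19.9, 22.9 and 21.0 CPM at Day 60, and 38.7, 60.2, 39.4 and 50.7 CPM at Day 113. The lowest Day 113 well stood well above the highest earlier one, and the rise from Day 30 was 2.38-fold (log2 1.25 ± 0.15, adjusted p = 1.3e-05). FEN1, the nuclease that trims Okazaki fragments, rose by 1.23 ± 0.21 (adjusted p = 0.00027), and LIG1, the ligase that seals them, by 0.49 ± 0.14 (adjusted p = 0.01). Of the clamp loader, RFC3 rose by 1.10 ± 0.14 (adjusted p = 1.8e-05), RFC2 by 0.73 ± 0.15 (adjusted p = 0.0013) and RFC4 by 0.64 ± 0.20 (adjusted p = 0.022). RFC5 rose least, from 10.9, 11.7, 12.4 and 11.9 CPM at Day 30 and 11.01, 13.97 and 15.9 CPM at Day 60 to 17.1, 15.6, 13.1 and 16.9 CPM at Day 113. Its Day 113 wells exceeded the Day 30 wells but overlapped the Day 60 wells, and its log2 change of 0.42 ± 0.15 (adjusted p = 0.04) did not pass without any one of the Day 30 wells or of Day 113 replicates 1, 2 or 4 (up to 0.1). RPA2, a subunit of the complex that coats single-stranded DNA, rose by 0.69 ± 0.15 (adjusted p = 0.002). RFC4 did not pass without Day 30 replicate 1 or 4 (up to 0.073). From Day 60, RFC2 (up to 0.059) and RPA2 (up to 0.083) did not pass without Day 60 replicate 1 or 3, nor LIG1 without either of these or Day 113 replicate 2 (up to 0.12).

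Of the 4 genes of deoxynucleotide supply 3 rose over the whole course, with a median log2 fold change of 0.49. RRM2, the cell cycle-dependent small subunit of ribonucleotide reductase, was 20.6, 27.7, 20.9 and 21.3 CPM at Day 30, 30.1, 26.1 and 34.8 CPM at Day 60, and 30.1, 43.2, 31.8 and 42.8 CPM at Day 113. All Day 113 wells lay above all Day 30 wells, by 0.71 ± 0.15 on the log2 scale (adjusted p = 0.0017), with Day 60 overlapping both. RRM1, the large subunit, rose by 0.57 ± 0.10 (adjusted p = 0.00032), and thymidine kinase TK1 by 0.41 ± 0.13 (adjusted p = 0.025). TYMS, thymidylate synthase, was 33.4, 39.2, 25.7 and 32.9 CPM at Day 30, 36.7, 39.9 and 30.8 CPM at Day 60, and 24.3, 33.0, 30.2 and 33.8 CPM at Day 113. Its days overlapped, with a whole-course difference of -0.11 ± 0.14 (adjusted p = 0.58). Most of the exon bases of TYMS overlap ENOSF1 or TYMSOS on the other strand, so its counts may include reads of these genes. TK1 did not pass over the whole course without any one of Day 30 replicates 1 or 4 or Day 113 replicates 2 or 4 (up to 0.085). RRM1 did not pass from Day 60 without Day 60 replicate 1 or 2 (up to 0.13).

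The 3 largest rises over the whole course were those of CCNE2, E2F1 and E2F2. E2F1, an activator of S-phase genes, was 14.3, 14.6, 13.7 and 10.8 CPM at Day 30, 13.1, 19.9 and 12.8 CPM at Day 60, and 33.7, 56.6, 34.4 and 43.4 CPM at Day 113. No earlier well reached the lowest Day 113 well, and the rise from Day 30 was 3.14-fold (log2 1.65 ± 0.19, adjusted p = 6.9e-06). E2F2, a second activator, stood at 0.662 to 3.68 CPM on the earlier days and 3.20 to 6.86 CPM at Day 113, a log2 rise of 1.97 ± 0.49 from Day 60 (adjusted p = 0.0081) and of 1.32 ± 0.43 from Day 30 (adjusted p = 0.025). The rise of E2F2 from Day 30 did not pass without any one of Day 30 replicates 1, 2 or 3 or Day 113 replicate 4 (up to 0.083). CCNE2, one of the 2 cyclin E genes that drive entry into S phase with CDK2, was 0.382, 0.867, 1.45 and 0.824 CPM at Day 30, 0.606, 1.55 and 1.45 CPM at Day 60, and 4.24, 1.54, 2.42 and 4.13 CPM at Day 113. Its Day 113 wells lay above all Day 30 wells but spread widely, with a rise of 1.80 ± 0.49 (adjusted p = 0.0089), and 1629 bases of its exons overlap INTS8 on the other strand. CCNE1 was 6.34, 6.30, 8.10 and 6.66 CPM at Day 30, 4.21, 4.42 and 2.37 CPM at Day 60, and 3.61, 7.99, 3.74 and 9.03 CPM at Day 113. At Day 113 it split into a low pair of wells (replicates 1 and 3) and a high pair (2 and 4) around the Day 30 level, and it passed in no comparison (adjusted p = 0.7 over the whole course).

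Both genes of chromatin assembly factor 1, which places histones on new DNA at the fork, rose. CHAF1A was 10.2, 15.2, 11.4 and 12.5 CPM at Day 30, 6.67, 10.2 and 8.14 CPM at Day 60, and 21.1, 24.8, 16.9 and 17.1 CPM at Day 113. The Day 113 wells lay above all others, with a rise of 1.26 ± 0.20 from Day 60 (adjusted p = 0.00037) and 0.69 ± 0.18 from Day 30 (adjusted p = 0.0066). CHAF1B was 2.79, 3.97, 3.85 and 3.78 CPM at Day 30, 2.59, 2.36 and 4.26 CPM at Day 60, and 6.18, 7.50, 5.13 and 4.89 CPM at Day 113. Its Day 113 wells also exceeded all others, but the whole-course rise of 0.72 ± 0.26 (adjusted p = 0.042) did not pass without any one of the Day 30 wells or Day 113 replicates 1 or 2 (up to 0.12). From Day 60 it rose by 0.95 ± 0.29 (adjusted p = 0.025), and not without Day 60 replicates 1 or 2 or Day 113 replicate 2 (up to 0.098).

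**Figure D3:**
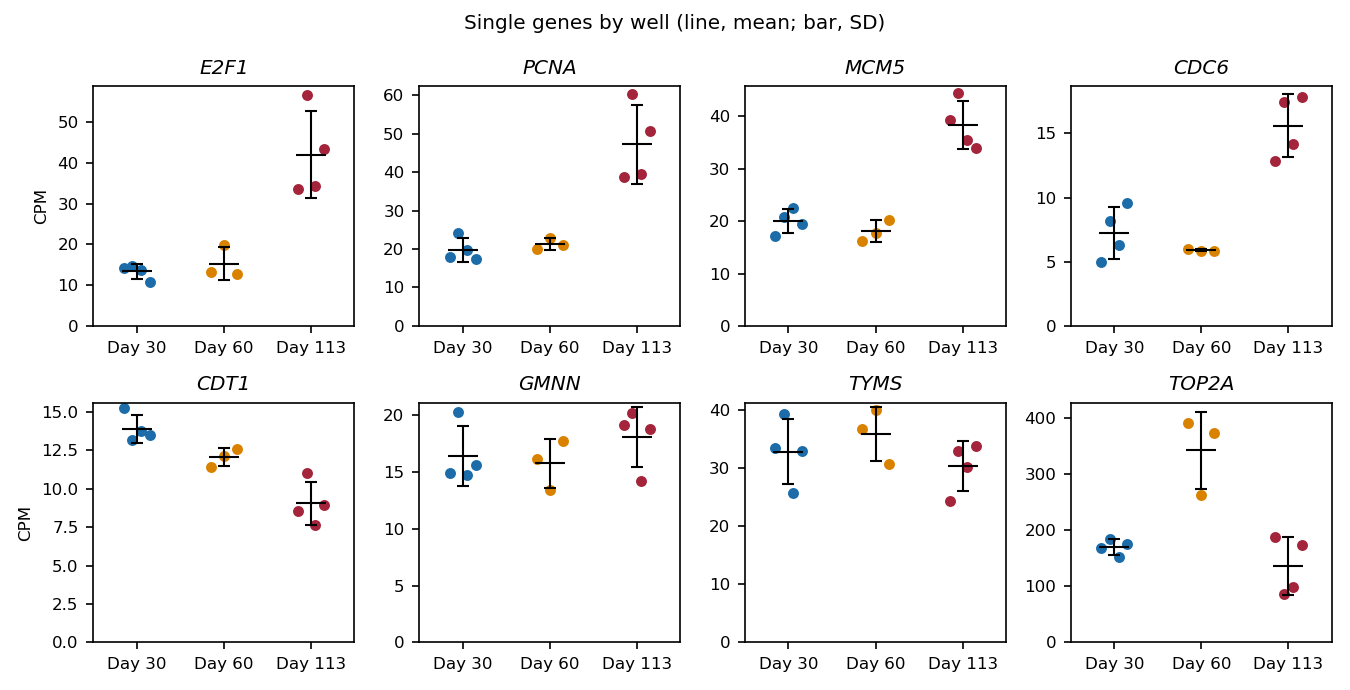
CPM of 7 replication genes and of TOP2A in each well (points) by day, with the day mean (line) and SD (bar). E2F1, PCNA, MCM5 and CDC6 are high in all Day 113 wells, CDT1 falls from day to day without overlap, GMNN and TYMS overlap, and TOP2A peaks at Day 60.

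The genes that lead the results lie on several chromosomes (GRCh38, GENCODE 29): E2F1 at chr20:33675683-33686404 and PCNA at chr20:5114953-5126626 on the minus strand, MCM5 at chr22:35400063-35425430, CDC6 at chr17:40287633-40304657, CDT1 at chr16:88803213-88809258 and CHAF1A at chr19:4402662-4445018 on the plus strand. The order of the genes by level was compared per length, as mean CPM per kilobase of annotated exon. At Day 113 the highest were PCNA (32.1 CPM per kilobase), MCM3 (29.4), RRM1 (28.2), RPA2 (21.3) and MCM4 (20.5). The lowest were ORC1 (0.803), CCNE2 (0.899) and E2F2 (0.937). At Day 30 the order was led by TYMS and MCM3 (both 19.7) and RRM1 (19.0), with PCNA at 13.5. Exons of 11 of the 42 genes overlap those of another gene in the table, among them MCM7 with AP4M1 (392 bases, opposite strand). TYMS overlaps ENOSF1 and TYMSOS, both on the opposite strand, over most of its 1662 exon bases. Annotated pseudogenes named after 7 of the 42 genes exist (PCNA, RFC3, RFC5, RPA2, FEN1, RRM2 and TYMS). Whether the counting used strand is not given in the sources used here, so reads of such genes may be shared.

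Replication genes and mitosis genes moved in opposite directions in the later interval. The mitosis list held 20 genes, mostly of mitotic entry, the spindle, the kinetochore and cytokinesis, and included TOP2A and MKI67. Its sum was 1022, 1057, 842 and 1018 CPM in the Day 30 wells, 1863, 1320 and 1718 CPM at Day 60, and 1037, 535, 572 and 893 CPM at Day 113. All Day 60 wells were above all others, and Day 113 overlapped Day 30. From Day 30 to Day 60, 7 of the 20 rose and 0 fell (median log2 fold change 0.60), beside 4.39% and 5.91% of all genes. In that interval 0 of the 42 replication genes were called. From Day 60 to Day 113 all 20 fell (median -1.12), while 25 replication genes rose and 0 fell. Of all genes 12.9% rose and 11.1% fell. Over the whole course 9 of the 20 mitosis genes fell and 0 rose (median -0.55), beside 17.2% and 17.3% of all genes.

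The direct test of the later minus the earlier interval passed for 19 of the 20 mitosis genes, all negative, and for 11 replication genes, all positive. Of all genes 4.38% passed as negative and 4.97% as positive. TOP2A, the topoisomerase that untangles sister chromosomes, was 168, 185, 152 and 176 CPM at Day 30, 391, 264 and 374 CPM at Day 60, and 189, 86.2, 98.6 and 173 CPM at Day 113. It peaked at Day 60 in all 3 wells, rising by 1.01 ± 0.22 (adjusted p = 0.0078) and then falling by 1.33 on the log2 scale (SE 0.22, adjusted p = 0.00053). PLK1, a mitotic kinase, fell over the whole course (-1.44 ± 0.22, adjusted p = 0.00011), as did CDC20, an activator of the anaphase-promoting complex (-1.18 ± 0.21, adjusted p = 0.00045), and KIF20A, a kinesin of cytokinesis (-1.01 ± 0.32, adjusted p = 0.024). MKI67, the common marker of cycling cells, fell from Day 60 (-0.87 ± 0.22, adjusted p = 0.0094) and did not pass over the whole course (-0.33 ± 0.21, adjusted p = 0.25).

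Wells of a day were also ranked on the 2 lists. At Day 30, replicate 2 had the highest value for 17 of the 42 replication genes and, with replicate 1, for 7 of the 20 mitosis genes each, while the lowest value was most often in replicate 1 for the replication genes (23) and in replicate 3 for the mitosis genes (19). At Day 113, replicate 2 had the highest value for 21 of the 42 replication genes and the lowest for 12 of the 20 mitosis genes, while replicate 1 had the highest for 17 mitosis genes and for 10 replication genes. Replicate 3 was low on both, with the lowest value for 20 replication and 8 mitosis genes. At Day 60, replicate 2 was highest for 21 replication genes and lowest for 19 mitosis genes, and replicate 1 was lowest for 22 replication genes and highest for 18 mitosis genes. These are counts over wells with no test.

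**Figure D4:**
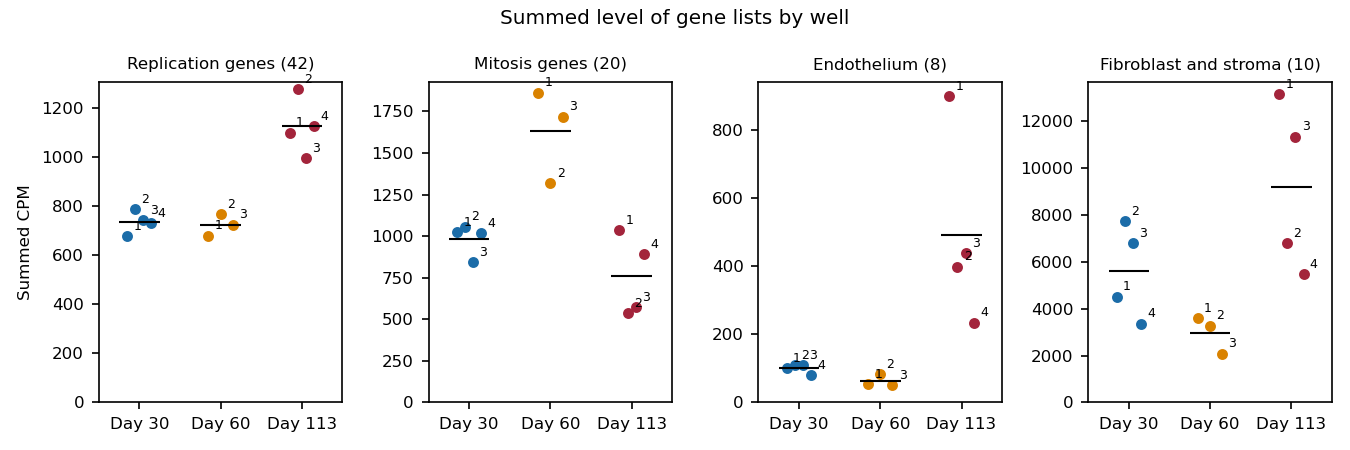
Summed CPM by well (points, numbered by replicate) with the day mean (line) for the 42 replication genes, 20 mitosis genes, 8 endothelial markers and 10 fibroblast and stroma markers. Replication genes are high at Day 113 in all 4 wells (998 to 1280 CPM), mitosis genes are high at Day 60 (1320 to 1863 CPM), and the endothelial and stromal sums at Day 113 are led by replicate 1.

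Markers of other cells moved over the same interval. Their counts are read against the 12.9% of all genes called higher and 11.1% called lower from Day 60 to Day 113. All 8 endothelial markers rose from Day 60 to Day 113, and their sum went from 79.0 to 110 CPM at Day 30 and 50.6 to 82.4 CPM at Day 60 to 899, 399, 437 and 234 CPM in the Day 113 wells. Of 10 fibroblast and stroma markers 7 rose and 1 fell, with sums of 3362 to 7722 CPM, 2084 to 3588 CPM and 5478 to 13144 CPM on the 3 days. Smooth muscle and pericyte markers rose in 3 of 6, with sums of 694 to 945 CPM, 759 to 916 CPM and 965 to 1460 CPM. Epicardial markers rose in 2 of 6, with sums of 97.3 to 137 CPM, 152 to 208 CPM and 195 to 271 CPM. At Day 113 the endothelial, stromal and smooth muscle sums were highest in replicate 1. The epicardial sum was highest in replicate 2, as were the replication sum and the cardiomyocyte sum (27826 CPM, against 23845, 23389 and 21680 CPM in replicates 1, 3 and 4). The low endoderm, leukocyte and pluripotency sums were also highest there. The part of any of these cell types in the rise of the replication genes was not tested.

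The 8 cardiomyocyte markers summed to 22383 to 32029 CPM at Day 30, 26407 to 30706 CPM at Day 60 and 21680 to 27826 CPM at Day 113. From Day 60 to Day 113, 2 of the 8 rose and 1 fell, beside 12.9% and 11.1% of all genes. Endoderm and epithelial markers fell in 6 of 7 from Day 30 to Day 60, beside 5.91% of all genes. Their sums went from 355 to 964 CPM at Day 30 to 23.5 to 33.3 CPM at Day 60. The 3 leukocyte markers in the table summed to at most 4.94 CPM in any well, with LYZ at 0 in 5 wells and CSF1R in 1. Of 2 pluripotency markers in the table, LIN28A was 2.80 to 5.14 CPM in the Day 30 wells and at 0 in 6 of the 7 later wells, and TDGF1 had counts in all 11 wells (1.00 to 11.4 CPM). Both fell from Day 30 to Day 60. MYH11, PTPRC, CD14, CD163, POU5F1, NANOG and DPPA4 were not analysed here.

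Genes that work beside the 42 were counted in lists by function, 90 genes in all without the mitosis list. From Day 60 to Day 113, 27 of them rose and 7 fell (median 0.25), beside 12.9% and 11.1% of all genes. Over the whole course 33 rose and 12 fell (median 0.19), beside 17.3% and 17.2% of all genes. From Day 30 to Day 60, 8 rose and 9 fell, beside 4.39% and 5.91%. The counts of each list below are over the whole course and read against the same 17.3% higher and 17.2% lower. Of 10 other chromatin replication genes 6 rose over the whole course and 0 fell, led by UHRF1, which guides DNA methylation to new strands (1.00 ± 0.29, adjusted p = 0.013), the histone chaperone ASF1B (0.94 ± 0.20, adjusted p = 0.0015) and HAT1, which acetylates new histone H4 (0.75 ± 0.12, adjusted p = 0.00018). Of 13 other polymerase, clamp and RPA genes 5 rose and 0 fell, among them POLE4 (1.25 ± 0.26, adjusted p = 0.0016) and the RNase H2 subunits RNASEH2C (1.02 ± 0.13, adjusted p = 1.5e-05) and RNASEH2B (0.95 ± 0.19, adjusted p = 0.0011).

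Of 15 other initiation and fork genes 7 rose and 1 fell. The checkpoint mediator CLSPN rose by 1.27 ± 0.25 (adjusted p = 0.00084) and the alternative clamp loader subunit CHTF18 by 0.87 ± 0.18 (adjusted p = 0.0012), while TICRR, needed to start origins, fell (-0.86 ± 0.32, adjusted p = 0.047), with 8.00 CPM in Day 113 replicate 1 against 1.65 to 4.41 CPM in the other 3 wells. Of 12 other deoxynucleotide genes 4 rose and 2 fell. DUT, which removes dUTP, rose by 1.00 ± 0.15 (adjusted p = 1e-04) and the dNTP hydrolase SAMHD1 by 0.99 ± 0.15 (adjusted p = 0.00012). The subunits of the kinase that fires origins parted: its catalytic subunit CDC7 rose (0.58 ± 0.19, adjusted p = 0.025) and its activating subunit DBF4 fell (-0.81 ± 0.21, adjusted p = 0.0066). ORC3 rose by 0.46 ± 0.12 (adjusted p = 0.0079), in a list of 10 other licensing genes of which 4 rose and 1 fell.

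Among 11 other E2F and pocket protein genes 4 rose and 2 fell over the whole course. The repressor E2F7 rose by 1.43 ± 0.19 (adjusted p = 3.3e-05), already by Day 60 (1.10 ± 0.20, adjusted p = 0.0026), the pocket protein RBL1 rose by 1.09 ± 0.21 (adjusted p = 0.00076), and E2F5 fell (-0.51 ± 0.18, adjusted p = 0.037). Of 12 other G1 and S cyclins, kinases and their regulators 2 rose and 3 fell, with the share that rose near that of all genes. CCND2 went from 306 to 364 CPM at Day 30 to 157 to 181 CPM at Day 113 (-0.98 ± 0.09, adjusted p = 5.2e-07), CCND3 rose (1.05 ± 0.16, adjusted p = 0.00012), and SKP2, which marks CDK inhibitors for destruction, fell (-1.23 ± 0.16, adjusted p = 2.5e-05). Of 7 CDK inhibitor genes 1 rose and 3 fell. CDKN1C, which encodes p57, was 13.4, 10.3, 12.7 and 7.70 CPM at Day 30, 8.55, 4.97 and 5.68 CPM at Day 60, and 2.19, 1.91, 1.43 and 1.48 CPM at Day 113. All its Day 113 wells lay below all others (-2.65 ± 0.26, adjusted p = 1.5e-06). CDKN2B fell (-1.83 ± 0.26, adjusted p = 6.9e-05) and CDKN2C rose (1.79 ± 0.21, adjusted p = 9.4e-06), both with most of the change before Day 60.

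Ratios of 4 pairs of genes with linked roles were taken within each library, which needs no scaling between libraries. The 12 comparisons used two-sided exact permutation tests, whose smallest possible p is 0.0286, and none passed after adjustment over the 12. The log2 ratio of CDT1 to its inhibitor GMNN was 0.03, -0.62, -0.09 and -0.21 at Day 30, -0.50, -0.14 and -0.49 at Day 60, and -1.16, -0.87, -0.89 and -1.07 at Day 113. All Day 113 wells lay below all earlier wells, by 0.77 against Day 30 and 0.62 against Day 60 on the log2 scale (exact permutation p = 0.0286 each, adjusted p = 0.0686). The log2 ratio of RRM2 to RRM2B, the small subunit used outside S phase, was -1.09, -0.89, -1.25 and -1.00 at Day 30, 0.02, -0.36 and -0.14 at Day 60, and -0.15, 0.19, -0.36 and 0.01 at Day 113. This ratio stood higher in all Day 60 wells than in all Day 30 wells, by 0.90 (exact permutation p = 0.0286, adjusted p = 0.0686), and Day 60 and Day 113 overlapped (exact permutation p = 0.771). RRM2B itself was lower at Day 60 than at Day 30 (-0.47 ± 0.12, adjusted p = 0.022).

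The log2 ratio of RRM2 to RRM1, the 2 subunits of one enzyme, averaged -1.51, -1.29 and -1.37 on the 3 days, and its wells overlapped (exact permutation p = 0.2 to 0.457). The log2 ratio of CCNE2 to CCNE1 was -3.99, -2.84, -2.47 and -2.99 at Day 30, -2.76, -1.50 and -0.70 at Day 60, and 0.23, -2.36, -0.62 and -1.12 at Day 113. Every Day 113 well exceeded every Day 30 well, with a mean difference of 2.10 (exact permutation p = 0.0286, adjusted p = 0.0686). The Day 60 to Day 113 difference of 0.69 lay within the spread of the wells (exact permutation p = 0.4), and only Day 113 replicate 1 had more counts of CCNE2 than of CCNE1.

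**Figure D5:**
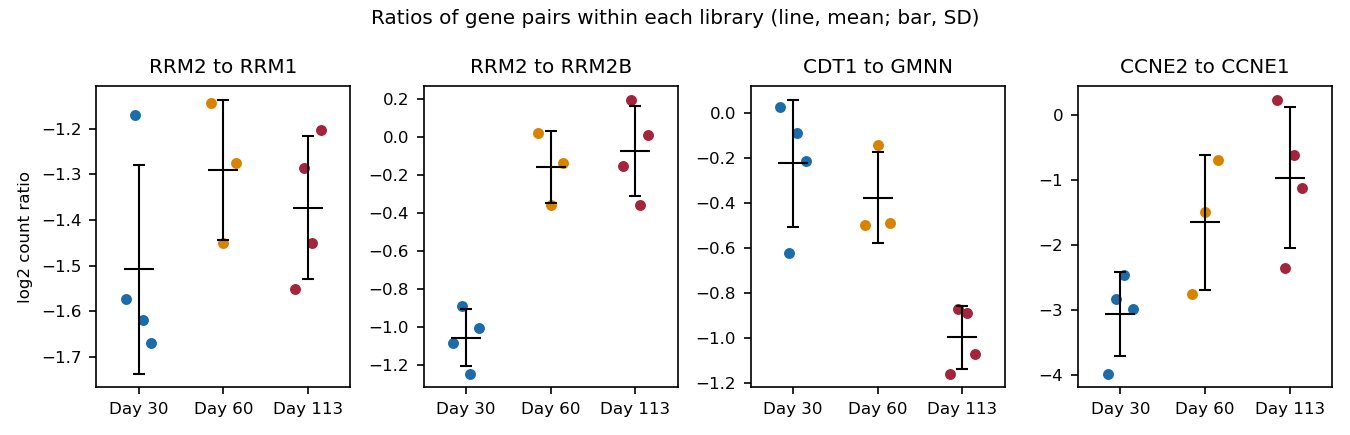
Log2 count ratios of 4 gene pairs within each library (points) by day, with the day mean (line) and SD (bar). CDT1 to GMNN is lowest in the Day 113 wells (-1.16 to -0.87), RRM2 to RRM2B is lowest in the Day 30 wells (-1.25 to -0.89), and RRM2 to RRM1 overlaps on all days.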

How the data were processed

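Poly(A) RNA libraries of 11 wells were read as pairs of 150 bp on an Illumina NovaSeq, as the labels' protocols state. The authors deposited whole-number counts for 19990 gene symbols, made with STAR 2.5.3a, featureCounts 2.0.3 and hg38, per the submitters' processing notes. The annotation and strand setting are not given in the sources used here. The deposited TPM values served only as an alternative: the gene length implied by count over TPM had a median Spearman rho of -0.0016 between libraries over 55 library pairs. No column of another sample was used.

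Counts were tested with the edgeR 4.0.16 quasi-likelihood F-test in R 4.3.3, with TMM scaling, 1 fit over all 11 libraries and day as the factor. The filterByExpr step (minimum count 10) removed 0 genes. P-values were adjusted by Benjamini-Hochberg over 19990 genes within a contrast, with a threshold of 0.05. CPM used TMM factors of 0.966 to 1.04, and the biological coefficient of variation was 0.282. Pairs of wells of a day differed by more than sampling noise (chi-square per degree of freedom 11.7 to 88.7). Ratios used a pseudocount of 0.5 counts. Gene positions and exon lengths came from GENCODE 29 (GRCh38), and promoter windows from RefSeq (GRCh38.p14).

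The genes and lists were chosen with earlier results of these data known. Per-well values are given for the genes of each role with the lowest and highest change from Day 30 to Day 113, and for those passing the interval test. Of each neighbouring list the 3 largest changes that passed are named, apart from 1 gene not reported here. TOP2A, MKI67, GMNN and RRM2B were added with their values known. Alternatives were other scalings, DESeq2 1.42.0, limma-voom (limma 3.58.1), filters, a replicate block, 2-day fits, the TPM values, and leaving out each well. In counts simulated from 19990 genes for Day 113 against Day 30, 77% of 2-fold and 92% of 4-fold changes were recovered, and 8 of 177 calls were false. Only 200 genes were changed, so the shares do not carry over to smaller changes or to the comparisons with the 3 wells of Day 60.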

Additional observations from a re-analysis of the deposited data

Results flagged for a closer look

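Groups of 4 wells were checked for a well set apart from the other 3, by a gap to the nearest other well above Dixon's critical value, as a share of the range of the group. Of 92 groups 7 met this, and chance gives about 1 in 20. At Day 30, replicate 2 was high for GMNN (20.3 CPM, others 14.7 to 15.6) and for RRM2 (27.7 CPM, others 20.6 to 21.3). Replicate 1 was low at Day 30 for GINS4 (1.91 CPM, others 6.58 to 7.18) and for CHAF1B (2.79 CPM, others 3.78 to 3.97), and replicate 3 was low for POLE2 (1.78 CPM, others 3.37 to 3.63). At Day 113, replicate 2 was high for the clamp loader gene RFC2 (30.1 CPM, others 19.5 to 20.5) and for the ligase gene LIG1 (35.5 CPM, others 25.9 to 27.4). Leaving out Day 30 replicate 1 kept the rise of GINS4 from Day 30, and leaving out Day 113 replicate 2 kept that of RFC2 and LIG1 from Day 30. The rise of CHAF1B from Day 30 did not pass without Day 30 replicate 1.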

How the results depend on the processing

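Over the other scalings, tools, filters, blocks and 2-day fits on the counts, 29 of 32 calls from Day 30 to Day 113 held in every setting (all but CHAF1B, POLA2 and RFC5), as did 21 of 25 from Day 60 to Day 113 (all but GINS2, LIG1, POLD1 and RRM1) and 9 of 11 interval differences (all but E2F1 and PCNA). With 1 well left out at a time, 24, 17 and 0 held throughout. From Day 30 to Day 60 the count of higher genes was 1 with only the 2 days in the fit, and of lower genes 1 with only the 2 days and 0 to 1 leaving out wells. With the replicate number as a replicate block it was 3 (MCM7, POLD1 and CHAF1A). From Day 60 to Day 113 the count of lower genes was 2 by upper-quartile scaling, 1 by DESeq2, limma-voom, a mean CPM of at least 1 or the replicate block, and 0 to 1 leaving out wells. Over the whole course it was 1 to 2 leaving out wells. Interval differences numbered 2 at an adjusted p under 0.01 and 0 to 11 leaving out wells. Nothing in the labels says that a well number marks a shared origin, and wells were not paired in the main fit. Deviations of the 10 same-numbered pairs correlated weakly but all positively (r 0.023 to 0.076), and 9 of 11 wells correlated best with their own number. The main test took no account of such a weak link, and only the replicate block did.

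With limma on log2(TPM + 1) or log2(TPM + 0.1), all counts of called genes were 0: higher from Day 60 or Day 30 to Day 113, lower over the whole course, changed over the 3 days, and interval differences. These values carry lengths that differ between libraries. With the libraries read 1 after another, the lengths implied by count over TPM repeated every 43388 values. Apart from a scale for each library, this held within 0.1 percent for 100% of 164149 value pairs. Each library holds 19990 genes, so the lengths did not stay with their genes. The counts of 0 and the turned signs therefore do not measure how the results depend on scaling. Signs that turned, in that order of pseudocounts, were, for Day 60 to Day 113, MCM3 (-1.10, -1.18), POLD1 (-0.25, -0.21), RFC2 (-1.05, -1.12), RPA2 (-0.27, -0.30) and FEN1 (-1.09, -1.03). For Day 30 to Day 113 they were MCM2 (-1.31, -1.39), GINS2 (-0.64, -0.75), MCM10 (-0.36, -0.71), POLA2 (-0.21, -0.16), RFC2 (-0.31, -0.32), RPA2 (-0.97, -1.07), FEN1 (-0.17, -0.14), TK1 (-0.28, -0.31), E2F2 (-0.60, -0.57) and CHAF1A (-0.40, -0.53), and for the interval difference MCM3 (-2.51, -2.70). Another scaling moved the median of all genes by at most 0.064 on the log2 scale. The lowest gene counts limit precision for CCNE2, E2F2, ORC1 and MCM10.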
